A study of Mus musculus with 53 samples.

Results

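The genes described are 9 mouse clade B serpins (Serpinb1a, Serpinb2, Serpinb3a, Serpinb5, Serpinb8, Serpinb9, Serpinb11, Serpinb12 and Serpinb13). They were taken by symbol from the annotation of both array types, out of 19938 named genes on the Gene ST arrays and 18194 on the 3' arrays, and each was read from its brightest probe set. All 9 were measured on the Gene ST arrays and 8 on the 3' arrays, where no value of Serpinb13 was used. They were selected on their measured levels in these tissues, so those levels are given as a description, without tests. The study profiled total RNA of mouse epithelial organs on 53 Affymetrix arrays in 18 groups, each of 3 arrays except the E14.5 bladder with 2. The 27 Gene ST arrays held whole cornea at E14.5, E15.5, E17.5, P3, P7, P14 and P28 (embryonic and postnatal days), and trachea and lung at E18.5. The 26 3' arrays held 3 embryonic ages of skin and of bladder (E14.5, E16.5, E18.5). They also held E18.5 esophagus, stomach and small intestine, the last from its proximal part. All mice were wild type on the CB6 strain background except those of the E18.5 bladder, which were Get1 +/-, with 1 functional copy of the gene now called Grhl3, a Grainyhead-like transcription factor. The submitters took the cornea and bladder arrays, and those of skin at E18.5, from previous work of their own. RNA came from homogenised organs, so a lower level can reflect fewer cells of a type or less RNA per cell, which cannot be told apart. Whether the arrays within a group represent different animals is not in the labels, so p-values measure the spread between arrays and nothing wider. The titles of E14.5 skin replicates 1 and 2 share a sample number and 1 ends in a suffix that may mark a repeat run, so these arrays may be 1 sample. They differed less from each other (SD of the log2 differences 0.372) than from replicate 3 (0.593 and 0.546). For skin at E16.5 against E14.5, counts or calls that changed with both averaged as 1 sample are given beside those of all 3 arrays. Member folds are from all 3 arrays unless stated.

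Serpins are protease inhibitors that offer a flexible reactive centre loop as bait. A protease that cuts the loop is swung across the serpin and trapped, and both molecules are used up. Clade B serpins lack a classical secretion signal and act mainly inside cells, where they are known for guarding stratified epithelia and leukocytes against proteases that leak from lysosomes or granules. Serpinb1a inhibits neutrophil elastase and related granule proteases, and Serpinb9 inhibits granzyme B. Serpinb2 is plasminogen activator inhibitor 2, an inhibitor of urokinase. Serpinb3a belongs to the squamous cell carcinoma antigen family, Serpinb12 inhibits trypsin-like proteases, and the human forms of Serpinb8 and Serpinb13 inhibit furin and lysosomal cathepsins. Serpinb5, maspin, is a serpin without classical inhibitory activity. In the RefSeq gene table, 7 of the 9 genes lie among the 12 protein-coding Serpinb genes of chromosome 1, in the order Serpinb5, Serpinb12, Serpinb13, Serpinb3a, Serpinb11, Serpinb2 and Serpinb8 with other family members between them. Serpinb1a and Serpinb9 lie among the 16 on chromosome 13. Near-identical family members can hybridise to one probe set, and the Serpinb3a probe set of the 3' arrays is of a class that is not unique to 1 transcript, so its values may include related genes.

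Levels are log2(intensity + 16) after quantile normalization within each array type. A level of 4 is the floor, an intensity of 0. Differences and folds are on this scale, which understates changes near the floor, and levels of different genes are not compared. The 2 array types were kept apart.

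Some arrays stood apart from their labels or from the other arrays of their group. The 3 arrays labelled lung had a level of Rag1, a lymphocyte gene, between 14.15 and 14.25. Their mean level of 9 thymocyte markers was 12.27 to 12.36, against 7.12 to 7.13 in trachea, and that of 5 thymic epithelial markers was 10.75 to 10.99, against 7.44 to 7.50 in trachea. Their lung marker Sftpc was between 6.68 and 6.91, within the range of the cornea arrays (6.43 to 6.95). They are called the arrays labelled lung below. In small intestine, replicate 3 had Krt5 at 12.53, against 4.14 and 4.45 in the other 2 arrays, and the intestinal regulator Cdx1 at the floor of 4, against 11 and 11.18. Its mean over 7 stomach markers was 10.84, against 5.87 and 6.43. In E14.5 skin, replicates 1 and 2 had Apoa4, an enterocyte gene, at 12.13 and 12.01, against 4.65 in replicate 3. In E18.5 skin, replicates 2 and 3 had Sftpc at 13.73 and 13.21, against 4.07 in replicate 1. In E14.5 cornea, replicate 3 had Trp63, a basal epithelial regulator, at 7.85, against 10.29 and 10.59, and 5 lens markers averaged 12.07 and 12.12 in replicates 3 and 2, against 9.42 in replicate 1. The 3' arrays also fell into 2 sets. Skin at E16.5 and E18.5 and small intestine correlated with each other at r of 0.76 to 0.99. Bladder, esophagus, stomach and E14.5 skin did so at 0.88 to 0.99, and pairs from different sets at 0.61 to 0.80 (across genes). Comparisons of skin at E16.5 with E14.5 and of skin with esophagus cross these sets, so tissue or age and array set cannot be told apart there.

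In the cornea, 5 of the 9 serpins were at least 2-fold higher at E15.5 than at E14.5 on arrays that did not overlap, and 0 were lower. Over all genes the same held for 5.17% and 2.11%. Serpinb11 was 48.8-fold, Serpinb3a 46.9-fold and Serpinb5 31.8-fold higher. Serpinb1a and Serpinb8 were 3.00-fold and 2.91-fold higher. Serpinb2, Serpinb9, Serpinb12 and Serpinb13 differed by 0.20 or less on the log2 scale, with overlapping arrays.

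Serpinb11 was at 5.07, 4.88 and 4.5 in the E14.5 corneas, at 9.99, 10.75 and 10.53 at E15.5, at 9.48, 9.10 and 9.47 at E17.5 and at 10.08, 9.50 and 9.78 at P3. It was at 9.84, 10.71 and 9.83 at P7, at 10.76, 10.44 and 10.37 at P14 and at 11.23, 11.56 and 10.57 at P28. The 3 E14.5 arrays were low and all later arrays high, and P7, P14 and P28 each overlapped the age before. The log2 difference of E15.5 from E14.5 was 5.61, and 5.45 without E14.5 replicate 3. Serpinb3a was at 4.5, 4.00 and 4.23 at E14.5, at 9.15, 10.46 and 9.78 at E15.5, at 9.49, 8.61 and 9.10 at E17.5 and at 7.82, 8.51 and 8.56 at P3. It was at 8.89, 9.41 and 10.14 at P7, at 9.17, 7.77 and 9.20 at P14 and at 7.89, 7.43 and 6.66 at P28. It thus had its highest mean at E15.5 and its lowest after E14.5 at P28, and 1 of the E14.5 arrays lay at the floor. Serpinb5 was at 5.95, 4.86 and 5.27 at E14.5, at 9.76, 10.66 and 10.63 at E15.5, at 9.46, 8.62 and 9.47 at E17.5 and at 9.62, 9.45 and 9.38 at P3. It was at 10.54, 11.09 and 10.43 at P7, at 11.28, 10.81 and 11.31 at P14 and at 12.03, 12.24 and 12.30 at P28. Its P28 arrays were above all earlier ones.

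**Figure D1:**
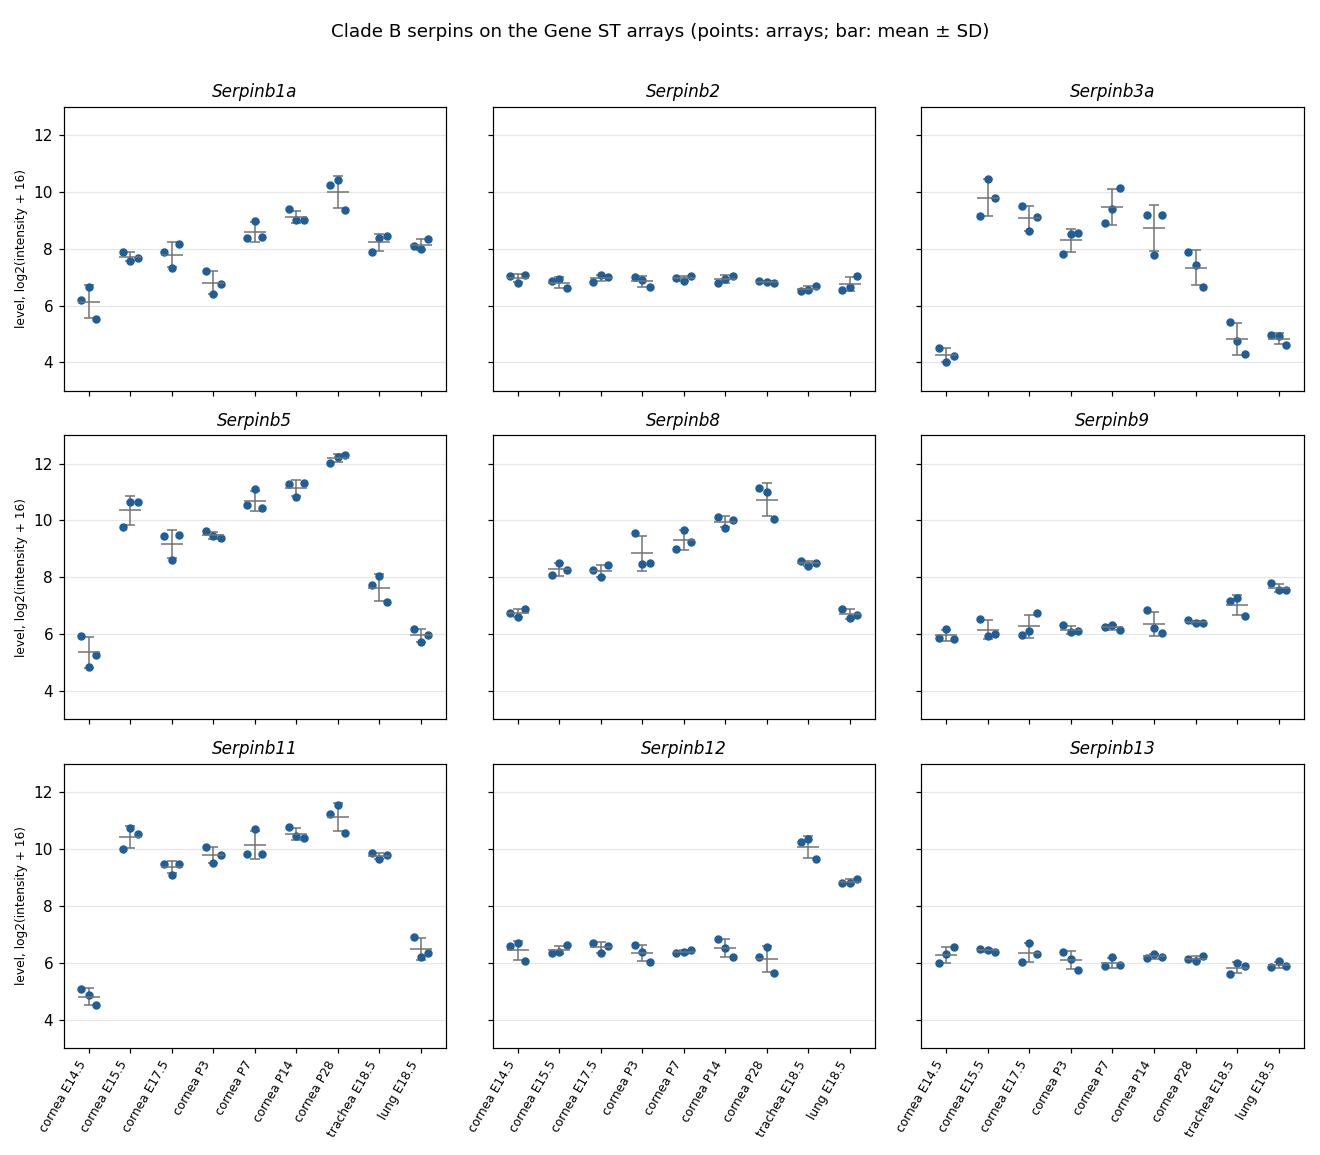
Level (log2(intensity + 16)) of the 9 clade B serpins on the Gene ST arrays, by cornea age and then for trachea and the arrays labelled lung, with 1 point per array and a bar at the mean ± SD. Serpinb3a, Serpinb5 and Serpinb11 lie below 6 in all 3 E14.5 corneas and above 9 at E15.5, whereas Serpinb2 and Serpinb13 stay between 5.76 and 7.06 in the cornea.

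The other 2 serpins that were higher at E15.5 had E14.5 levels of 5.52 to 6.87. Serpinb8 was at 6.74, 6.61 and 6.87 at E14.5, at 8.07, 8.50 and 8.26 at E15.5 and at 8.25, 8.02 and 8.43 at E17.5. Its means then were 8.84 ± 0.61 at P3, 9.30 ± 0.35 at P7, 9.95 ± 0.19 at P14 and 10.73 ± 0.59 at P28 (SD, n = 3 each). The means increased at every age after E17.5, but the P7 arrays overlapped those of P3 and the P28 arrays those of P14. Serpinb1a was at 6.18, 6.67 and 5.52 at E14.5, at 7.88, 7.56 and 7.69 at E15.5 and at 7.87, 7.31 and 8.18 at E17.5. It averaged 6.80 ± 0.41 at P3, 8.59 ± 0.34 at P7, 9.13 ± 0.21 at P14 and 10.00 ± 0.56 at P28. The P3 arrays lay below those of E15.5 and P7, so the course was not one of steady increase. Between successive ages, 5 members were higher at E15.5, 2 were lower at E17.5 (Serpinb5 and Serpinb11, by 1.17 and 1.07 on the log2 scale), 3 were higher at P7 (Serpinb1a, Serpinb3a and Serpinb5) and 1 at P28 (Serpinb5) by the same rule. Over all genes, 0.577% were higher and 0.1% lower at E17.5, and 0.953% and 0.833% at P7. None of the 9 passed it at P3 (0.562% and 0.963% of genes) or P14 (0.166% and 0.0502%). At E17.5, replicate 2 differed more from replicates 1 and 3 (SD of the log2 differences 0.479 and 0.483) than they did from each other (0.266). It was the lowest E17.5 array for Serpinb5 and Serpinb11. The mean of 5 skeletal muscle markers was 9.21 to 12.01 at E17.5, against 7.84 to 10.83 at E15.5. The part of either in the lower levels at E17.5 was not tested.

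Between P28 and E15.5, 3 members were at least 2-fold higher and 1 lower without overlap, against 4.87% and 5.46% of all genes. Serpinb8 was 5.46-fold, Serpinb1a 4.89-fold and Serpinb5 3.57-fold higher at P28, and Serpinb3a was 5.53-fold lower. Serpinb11 was 1.62-fold higher at P28 with overlapping arrays. Between P28 and P14, only Serpinb5 passed the rule, 2.08-fold higher, against 1.58% of genes higher and 3.03% lower. Serpinb3a was 2.62-fold lower at P28 with overlapping arrays. On values as deposited, without quantile normalization, 4 members passed, with Serpinb1a, Serpinb5 and Serpinb8 higher and Serpinb3a lower, and 2 passed without P28 replicate 1 or 3. The labels do not pair the P28 and P14 arrays. Their deviations correlated within replicate numbers (0.133 to 0.242), so differences by replicate number are also given, as a description only. Matched this way Serpinb3a was lower at P28 each time, by -1.28, -0.34 and -2.54 on the log2 scale. Serpinb11 was higher each time, by 0.47, 1.11 and 0.20. Serpinb1a, Serpinb5 and Serpinb8 were also higher in every such match. The replicate numbers may be no more than listing order. For all of these genes but Serpinb5 the P28 and P14 arrays overlapped, so another matching could change the signs. No conclusion is drawn from the matched differences. Marker levels also differed between E15.5 and E14.5. Krt12, the corneal epithelial keratin, was at 12.75, 13.37 and 13.37 at E15.5, against 6.00, 6.04 and 5.92 at E14.5. The mean of 5 corneal epithelial markers was 11.23 to 11.87 at E15.5, against 7.29 to 7.58 at E14.5, and 4 of the 5 rose. The mean of 7 basal epithelial markers was 11.10 to 11.62 at E15.5, against 8.57 to 9.91 at E14.5. The mean of 5 lens markers was 7.32 to 7.85 at E15.5, against 9.42 to 12.12 at E14.5. At P28 the corneal epithelial, basal and lens means were 13.43 to 13.53, 11.23 to 11.65 and 8.79 to 10.49. At P14 they were 12.67 to 12.81, 11.69 to 11.76 and 7.36 to 11.32, so markers also differed among the ages of the later comparisons. Their part in the serpin levels was not tested.

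The remaining members had flat courses in the cornea. Serpinb2 ranged from 6.61 to 7.06 over the 21 cornea arrays, with neighbouring ages overlapping throughout. Serpinb9 ranged from 5.84 to 6.84, Serpinb12 from 5.64 to 6.83 and Serpinb13 from 5.76 to 6.71. For these 4 genes no step between successive ages exceeded 0.40 on the log2 scale and all steps overlapped. Without detection calls, a flat level of this size cannot be told apart from absence.

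Among the 5 members that were higher at E15.5, the RefSeq promoter table (GRCm38.p6) held a window for Serpinb5, Serpinb11, Serpinb3a and Serpinb8. It holds 250 bases before to 50 after the transcription start, and the windows are shown because all 4 genes were higher at E15.5 than at E14.5. They lie at chr1:106860925-106861224 (plus strand) for Serpinb5, chr1:107362064-107362363 (plus) for Serpinb11, chr1:107052254-107052553 (minus) for Serpinb3a and chr1:107589756-107590055 (plus) for Serpinb8. Each is written 5′ to 3′ on the gene's strand, with matches to the motifs searched in capitals.
Serpinb5: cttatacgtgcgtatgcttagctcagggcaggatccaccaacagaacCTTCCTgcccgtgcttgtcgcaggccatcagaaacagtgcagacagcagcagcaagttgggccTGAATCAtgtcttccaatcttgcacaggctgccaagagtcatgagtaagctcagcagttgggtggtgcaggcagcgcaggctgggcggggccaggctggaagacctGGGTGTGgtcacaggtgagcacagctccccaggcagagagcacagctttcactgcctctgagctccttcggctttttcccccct
Serpinb11: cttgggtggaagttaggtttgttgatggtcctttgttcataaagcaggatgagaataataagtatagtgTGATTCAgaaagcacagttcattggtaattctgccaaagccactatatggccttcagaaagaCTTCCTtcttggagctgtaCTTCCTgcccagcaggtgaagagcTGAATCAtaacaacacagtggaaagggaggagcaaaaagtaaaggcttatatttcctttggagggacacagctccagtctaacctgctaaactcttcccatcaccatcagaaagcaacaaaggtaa
Serpinb3a: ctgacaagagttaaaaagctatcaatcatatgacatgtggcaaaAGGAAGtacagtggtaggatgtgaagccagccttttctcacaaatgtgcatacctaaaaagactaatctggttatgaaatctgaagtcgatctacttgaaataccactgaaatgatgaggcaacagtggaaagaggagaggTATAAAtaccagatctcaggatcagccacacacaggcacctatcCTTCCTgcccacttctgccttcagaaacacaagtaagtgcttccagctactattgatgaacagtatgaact
Serpinb8: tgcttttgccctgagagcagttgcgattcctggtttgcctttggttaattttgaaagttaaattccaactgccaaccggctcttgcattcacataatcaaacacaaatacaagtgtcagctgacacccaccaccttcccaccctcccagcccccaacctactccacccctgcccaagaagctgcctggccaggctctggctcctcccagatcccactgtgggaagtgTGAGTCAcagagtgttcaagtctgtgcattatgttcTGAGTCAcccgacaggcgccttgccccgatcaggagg
The motifs, searched on both strands, were TGANTCA for AP-1 with any middle base, AACNGGTT for Grainyhead-like factors, AGGAAG for Ets factors, GGGNGTG for Klf factors and TATAAA for the TATA box. TGAGTCA, the AP-1 core, was counted separately, and each of its matches is also one of TGANTCA. Serpinb5 held TGANTCA at -140 from the start, AGGAAG on the reverse strand at -203 and GGGNGTG at -34. Serpinb11 held TGANTCA at -181 and -76 and AGGAAG on the reverse strand at -119 and -100. Serpinb3a held AGGAAG at -206 and, reversed, at -21, and TATAAA at -65. Serpinb8 held TGAGTCA at -23 and 14. Over 32851 promoter windows of 300 bases, 7.81% held TGANTCA, 5.2% TGAGTCA, 2.09% AACNGGTT, 35.4% AGGAAG, 29.2% GGGNGTG and 13.6% TATAAA. Of the 9 windows of the 7 members in the table, 6 held TGANTCA, 1 TGAGTCA, 0 AACNGGTT, 4 AGGAAG, 3 GGGNGTG and 5 TATAAA. The windows of Serpinb2 overlap each other, and matches describe letters only.

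Serpinb genes outside the list were tested by limma with Benjamini-Hochberg adjustment over all genes of the array type. They are those left after the members were chosen on their levels in these data. Their counts and p-values, here and on the 3' arrays, therefore partly reflect that choice. Rising or falling here means a change of 2-fold or more whose adjusted p is under 0.05. Of the 15 other clade B serpins on the Gene ST arrays, 3 changed across the cornea ages (F test, 21.7% of all genes): Serpinb6a (range of age means 1.57, adjusted p = 4.04e-06), Serpinb6c (1.34, adjusted p = 0.00788) and Serpinb10 (1.49, adjusted p = 0.0302). The median range over the 15 genes was 0.64, against 0.55 over all genes. Serpinb6a, proteinase inhibitor 6, was at 8.75, 9.14 and 8.13 at E14.5 and between 9.47 and 10.49 at all later ages. At E15.5 against E14.5, 0 of the 15 rose and 1 fell, against 5.3% and 2.26% of all genes, and their median difference was -0.06, against -0.02. The gene that fell was Serpinb10, with E15.5 levels of 5.97, 5.72 and 4.21, against 7.17, 7.09 and 6.10 at E14.5 (log2 difference -1.49 ± 0.40 SE, adjusted p = 0.00754). It was also the only one of the 15 to change between P28 and E15.5, where it rose by 1.37 ± 0.40 (adjusted p = 0.0114; 4.9% of genes rose and 5.4% fell). Both calls rested on E15.5 replicate 3, the lowest array, since without it the differences were -0.94 and 0.83 and did not pass. The call between P28 and E15.5 was also lost without P28 replicate 1 (1.19), and that across ages without any one of these arrays or of E14.5 replicates 1 and 2. Between P28 and P14, 0 of the 15 changed by limma and 2 had an unadjusted p under 0.05, against 1.63% of all genes up and 2.84% down.

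In trachea, 4 of the 9 members were at least 2-fold higher than in the arrays labelled lung and 0 were lower, against 10.8% and 5.23% of all genes. Serpinb11 was at 9.86, 9.66 and 9.77 in trachea and at 6.92, 6.19 and 6.35 in the arrays labelled lung, a 9.69-fold difference. Serpinb12 was at 10.23, 10.35 and 9.63 in trachea and at 8.79, 8.81 and 8.95 in the arrays labelled lung, 2.33-fold. Both groups lay above all cornea arrays for Serpinb12, which did not exceed 6.83 there. Serpinb8 was at 8.58, 8.39 and 8.51 in trachea and at 6.90, 6.55 and 6.66 in the arrays labelled lung, 3.46-fold. Serpinb5 was at 7.73, 8.04 and 7.12 in trachea and at 6.18, 5.72 and 5.97 in the arrays labelled lung, 3.19-fold. Its trachea arrays were below every cornea array from E15.5 on. Serpinb9 was 1.51-fold lower in trachea, at 7.18, 7.28 and 6.64, against 7.79, 7.55 and 7.55. Serpinb3a was low in both groups, at 5.42, 4.74 and 4.29 in trachea and 4.95, 4.94 and 4.63 in the arrays labelled lung. Serpinb1a, Serpinb2 and Serpinb13 differed by 0.16 or less, with overlapping arrays. Marker lists also differed between trachea and the arrays labelled lung. All 9 thymocyte markers were lower in trachea than in the arrays labelled lung. Nonkeratinised stratified markers averaged 8.13 to 9.64 in trachea, against 5.91 to 6.16, with 5 of 6 higher, and 4 esophagus markers 9.34 to 11.54, against 7.27 to 7.56. All 5 skeletal muscle markers were higher in trachea, with means of 12.57 to 13.11, against 7.72 to 8.07. Their part in the serpin levels was not tested. Of the 15 other clade B serpins, Serpinb6a rose in trachea (11.22 ± 0.04 against 10.20 ± 0.08, SD, n = 3 each; log2 difference 1.02, limma adjusted p = 8.86e-05) and 0 fell. It fell just short of the 2-fold limit without replicate 1 of either group (1.00 without that of trachea and 0.98 without that of the arrays labelled lung).

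On the 3' arrays the order of the organs differed between members. Serpinb5, Serpinb8, Serpinb2 and Serpinb12 had their 2 highest means in skin at E16.5 and E18.5. Serpinb3a was highest in stomach, Serpinb11 in esophagus and Serpinb9 in bladder. Serpinb1a was high in skin at E16.5 and E18.5 and in small intestine on its brighter probe set, but not on its other one. Skin at E16.5 and E18.5 and small intestine lie in a different array set from the other groups. Tissue or age and array set therefore cannot be told apart in these orders.

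**Figure D2:**
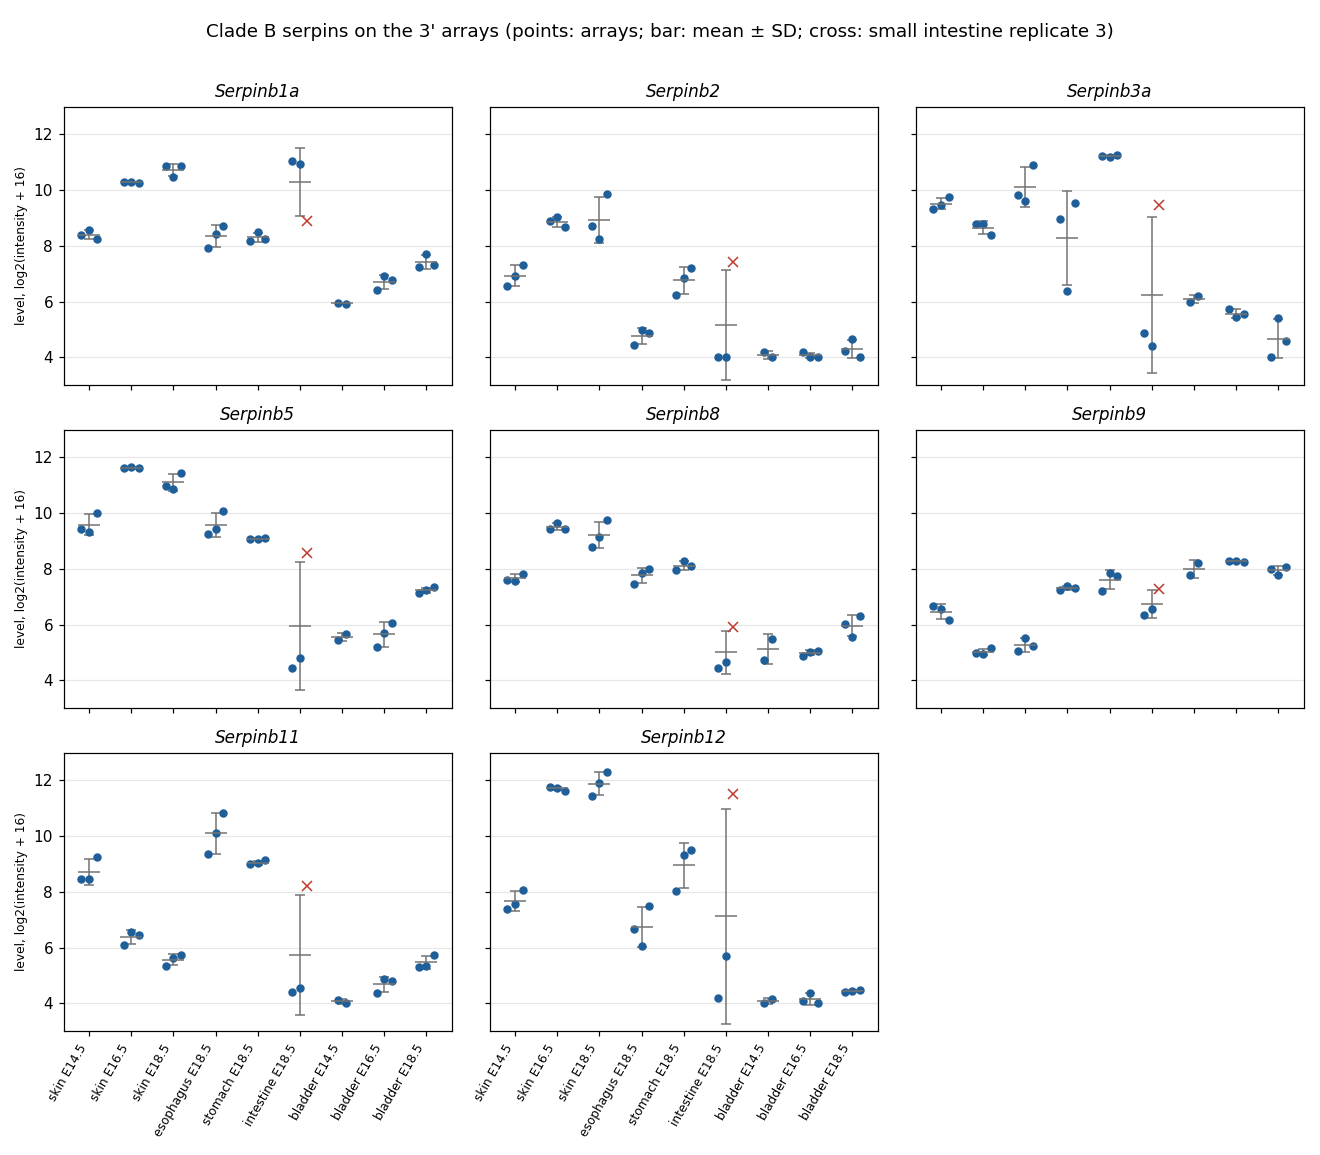
Level (log2(intensity + 16)) of 8 clade B serpins on the 3' arrays in skin by age, esophagus, stomach, small intestine and bladder by age, with 1 point per array, a bar at the mean ± SD, and a cross for small intestine replicate 3. Serpinb12 lies above 11.4 in skin at E16.5 and E18.5 and at or below 4.5 in bladder, and Serpinb11 is highest in esophagus.

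In skin, 5 members were at least 2-fold higher at E16.5 than at E14.5 and 2 were lower, against 18.5% and 24.8% of all genes. The counts were the same with E14.5 replicates 1 and 2 averaged, but 4 higher and 3 lower with Serpinb1a read from its other probe set. Serpinb12 was at 11.75, 11.73 and 11.63 at E16.5 and at 7.38, 7.56 and 8.06 at E14.5, 16.5-fold higher. Serpinb5 was at 11.61, 11.67 and 11.63 at E16.5 and at 9.42, 9.32 and 10.02 at E14.5, 4.13-fold higher. Serpinb2 was at 8.90, 9.03 and 8.67 at E16.5 and at 6.58, 6.92 and 7.31 at E14.5, 3.81-fold higher. All these E16.5 arrays lay above those of E14.5, as did those of Serpinb8 (9.42, 9.66 and 9.43 at E16.5, against 7.60, 7.56 and 7.82, 3.59-fold). Serpinb11 went the other way, at 6.09, 6.56 and 6.47 at E16.5 and 8.45, 8.47 and 9.25 at E14.5, 5.09-fold lower. Serpinb9 was at 4.98, 4.95 and 5.16 at E16.5 and at 6.68, 6.55 and 6.18 at E14.5, 2.72-fold lower. Serpinb3a was 1.83-fold lower, at 8.77, 8.80 and 8.38 at E16.5 and 9.33, 9.48 and 9.75 at E14.5. Against E14.5 replicate 3 alone, which lacked the intestinal genes, the 7 differences kept their direction, with Serpinb12 at 3.65 and Serpinb11 at -2.87 on the log2 scale, and Serpinb3a was 2.15-fold lower. Marker lists moved with age. The mean of 7 keratinised suprabasal markers was 12.21 to 12.46 at E16.5, against 9.90 to 10.24 at E14.5, with 2 of the 7 called higher. The mean of 7 basal epithelial markers was 10.57 to 10.60, against 9.43 to 9.60, with 2 called higher and 2 lower. The mean of 6 mast cell markers was 10.22 to 10.37, against 8.06 to 8.31, with 4 called higher, and that of 5 skeletal muscle markers 11.86 to 12.04, against 8.46 to 9.20, with all 5 higher. Their part in the serpin levels was not tested.

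From E16.5 to E18.5 the skin levels moved less. Only Serpinb3a passed the rule, at 9.81, 9.60 and 10.92 at E18.5 and 8.77, 8.80 and 8.38 at E16.5, 2.75-fold higher, against 2.67% of genes higher and 2.34% lower. It was 2.24-fold higher with E18.5 replicate 1 alone, the array without Sftpc. Serpinb11 was at 5.35, 5.64 and 5.72 at E18.5, against 6.09, 6.56 and 6.47, which is 1.74-fold lower, and 2.03-fold lower with E18.5 replicate 1 alone. Over the 3 skin ages Serpinb11 thus had its highest level at E14.5 and its lowest at E18.5, without overlap. Serpinb5 was 1.45-fold lower at E18.5 without overlap, at 10.96, 10.88 and 11.45.

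On the 3' arrays 5 members had more than 1 probe set, and their levels above are from the brightest. Serpinb1a had a pair of probe sets there that went opposite ways in skin. The brighter one was at 10.28, 10.30 and 10.25 at E16.5 and at 8.39, 8.56 and 8.25 at E14.5, whereas the other was at 6.88, 6.74 and 6.61 at E16.5 and at 8.91, 8.84 and 8.72 at E14.5. In the 3 bladder ages both had higher means with age. In skin at E16.5 and E18.5 and in small intestine, the brighter set had means above 10 and the other at 7.07 or below. These groups together form an array set. Tissue or age and array set cannot be told apart for this disagreement. The brighter set was 3.67-fold higher at E16.5 in skin, and the mean of both sets was lower by 0.10 on the log2 scale. The direction of Serpinb1a in skin was therefore not settled by these arrays. The same holds for its difference between skin and esophagus at E18.5, where the brighter set was at 10.73 ± 0.22 in skin and 8.35 ± 0.40 in esophagus and the other at 7.07 ± 0.36 in skin and 8.30 ± 0.56 in esophagus (SD, n = 3 each).

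**Figure D3:**
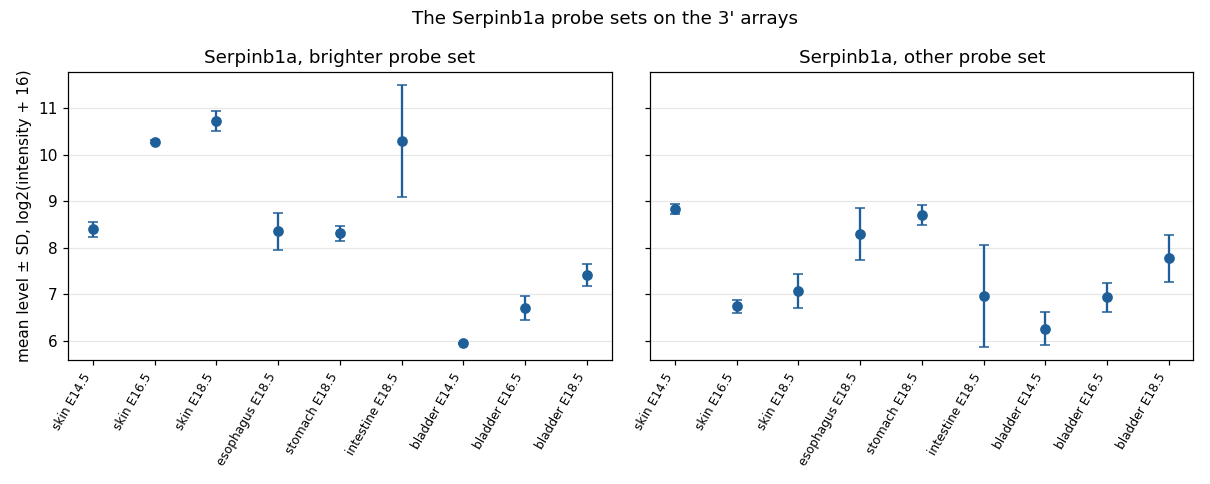
Mean level ± SD (log2(intensity + 16); n = 3 arrays, 2 for E14.5 bladder) of the brighter (left) and the other (right) Serpinb1a probe set in each group of the 3' arrays. In skin at E16.5 and E18.5 and in small intestine the brighter set lies above 10 and the other at 7.07 or below, whereas in bladder both have higher means with age.

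In bladder, 0 of 8 members changed at least 2-fold without overlap between E16.5 and E14.5, against 1.16% of genes higher and 0.286% lower. Serpinb1a was at 6.43, 6.93 and 6.78 at E16.5 and at 5.94 and 5.93 at E14.5, 1.71-fold higher without overlap. Serpinb11 was at 4.36, 4.89 and 4.79 at E16.5 and at 4.12 and 4.01 at E14.5, 1.53-fold higher and near the floor. Serpinb9 was at 8.28, 8.27 and 8.26 at E16.5 and at 7.77 and 8.22 at E14.5. Serpinb2 and Serpinb12 did not exceed 4.66 in any bladder array, at or close to the floor. At E18.5, in Get1 +/- bladders, Serpinb5 was at 7.15, 7.24 and 7.34, above the 5 earlier arrays (5.19 to 6.06), and Serpinb8 at 6.04, 5.55 and 6.32, above theirs (4.73 to 5.50). Serpinb3a had the opposite order, with 4.03, 5.41 and 4.58 at E18.5 below the 5.45 to 6.19 of earlier ages. Genotype and age cannot be told apart for E18.5 bladder.

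Between esophagus and stomach, both with a stratified lining in the mouse (in stomach only its forepart), 1 member was at least 2-fold higher in esophagus and 3 were lower, against 2.84% and 4.9% of all genes. Serpinb3a was at 8.95, 6.38 and 9.55 in esophagus and at 11.22, 11.20 and 11.26 in stomach, 7.64-fold lower. Serpinb12 was at 6.66, 6.06 and 7.51 in esophagus and at 8.02, 9.32 and 9.51 in stomach, 4.62-fold lower. Serpinb2 was at 4.44, 4.97 and 4.88 in esophagus and at 6.25, 6.85 and 7.20 in stomach, 4.01-fold lower. Serpinb11 was the member that was higher in esophagus, at 9.37, 10.10 and 10.84, against 8.99, 9.04 and 9.13 in stomach, 2.08-fold. Serpinb5 was 1.42-fold higher without overlap, and Serpinb1a, Serpinb8 and Serpinb9 overlapped. Keratinised suprabasal markers differed the same way as the 3 lower members, with a mean over 7 genes of 6.13 to 6.71 in esophagus and 9.37 to 10.64 in stomach. Nonkeratinised markers averaged 10.65 to 12.03 in esophagus and 9.82 to 10.07 in stomach. Their part in the serpin levels was not tested.

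Between skin and esophagus at E18.5, 6 of 8 members were at least 2-fold higher in skin and 2 lower, against 23.3% and 25.6% of all genes. With Serpinb1a from its other probe set these were 5 and 3. Serpinb12 was at 11.45, 11.90 and 12.30 in skin and at 6.66, 6.06 and 7.51 in esophagus, 35.3-fold higher. Serpinb2 was at 8.72, 8.25 and 9.85 in skin and at 4.44, 4.97 and 4.88 in esophagus, 18.1-fold higher. Serpinb11 was at 5.35, 5.64 and 5.72 in skin and at 9.37, 10.10 and 10.84 in esophagus, 23.1-fold lower. Serpinb9 was at 5.06, 5.54 and 5.22 in skin and at 7.23, 7.38 and 7.33 in esophagus, 4.11-fold lower. No array of either organ overlapped the other for any of the 8. With skin replicate 1 alone the same 6 were higher and 2 lower, with Serpinb12 at 26.1-fold and Serpinb11 at 27-fold. The mean of 7 keratinised suprabasal markers was 12.30 to 12.52 in skin, against 6.13 to 6.71 in esophagus, and that of 6 nonkeratinised markers was 5.26 to 5.61, against 10.65 to 12.03.

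Against proximal small intestine, which has a simple epithelium, 4 members were at least 2-fold higher in skin and 1 lower with all arrays (8.12% and 9.09% of all genes). Without small intestine replicate 3, the array with stomach and basal epithelial genes, 6 were higher and 1 lower. Serpinb12 was at 4.18, 5.70 and 11.50 in small intestine, the last in replicate 3, and was 122.9-fold higher in skin without that array and 27-fold with it. Serpinb5 was at 4.43, 4.80 and 8.58 in small intestine, and 89.4-fold higher in skin without replicate 3 and 35.7-fold with it. Serpinb3a was at 4.86, 4.4 and 9.46, and 44.7-fold higher in skin without replicate 3 and 14.6-fold with it. Replicate 3 was the highest small intestine array for 7 of the 8 members and the lowest for Serpinb1a (11.05, 10.93 and 8.91). Serpinb8 was 25.2-fold higher in skin without replicate 3 and 18.5-fold with it, and Serpinb2 30.5-fold and 13.8-fold. Serpinb9 was 2.26-fold lower in skin without replicate 3 and 2.74-fold with it. Serpinb11 was 2.12-fold higher in skin without replicate 3, and 1.11-fold lower with it. Serpinb1a did not differ by 2-fold either way, at -0.26 without and 0.44 with replicate 3 on the log2 scale.

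Of the 10 other clade B serpins on the 3' arrays, 3 rose and 2 fell in skin at E16.5 against E14.5 by limma (18.2% and 25% of all genes), with a median difference of -0.13, against -0.18 over all genes. Serpinb6c was at 8.09, 7.93 and 7.83 at E16.5 and 4.04, 4.76 and 4.77 at E14.5 (log2 difference 3.43 ± 0.22 SE, adjusted p = 1.42e-11). Serpinb7, megsin, was at 10.56, 10.69 and 10.61 at E16.5 and 7.76, 7.26 and 8.11 at E14.5 (2.91 ± 0.42, adjusted p = 3.15e-06). Neither overlapped between the ages. Serpinb6e rose by 1.37 ± 0.25 (adjusted p = 7.29e-05). Serpinb6b fell, at 4.95, 5.13 and 5.06 at E16.5 and 8.27, 8.40 and 5.70 at E14.5 (-2.41 ± 0.47, adjusted p = 0.000137), and Serpinb9b fell by 1.06 on the log2 scale (adjusted p = 0.00191). Both were highest in the E14.5 arrays that held intestinal genes, and against E14.5 replicate 3 alone their differences were -0.66 and -0.10, which did not pass. A lone array was assumed to vary like the arrays of other groups, here and in the other comparisons with 1 array. In that comparison 3 of the 10 rose and 1 fell, Serpinb1b (-1.28). Serpinb9b also did not pass without any one of E14.5 replicates 1 and 2 and E16.5 replicate 1 (differences of -0.75, -0.89 and -0.97) or with only the compared arrays in the fit (-1.06). With E14.5 replicates 1 and 2 averaged, 3 rose and 2 fell, but Serpinb1b (-1.06) passed in place of Serpinb9b (-0.82). From E16.5 to E18.5, Serpinb6a rose (1.24 ± 0.27, adjusted p = 0.00385) and Serpinb6c fell (-1.31 ± 0.22, adjusted p = 0.000294), against 2.44% and 2% of all genes. With E18.5 replicate 1 alone only Serpinb6c passed.

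In bladder 0 of the 10 passed between E16.5 and E14.5 by limma (0.269% of all genes rose and 0.0715% fell), and 1 had an unadjusted p under 0.05. Between skin and esophagus, 4 rose and 3 fell (23.3% and 25.7%). Serpinb7 had the largest of these changes, at 9.80 ± 0.65 in skin and 4.46 ± 0.44 in esophagus (5.34 ± 0.42 SE, adjusted p = 3.21e-10), and Serpinb6c, Serpinb6e and Serpinb6a rose by 2.40, 1.74 and 1.63. Serpinb6b, Serpinb1b and Serpinb9b fell in skin by 1.54, 1.26 and 1.12 on the log2 scale. Serpinb1b did not pass without esophagus replicate 4 (-0.94), and Serpinb6b did not pass with skin replicate 1 alone. Between esophagus and stomach, Serpinb7 fell in esophagus (-1.36 ± 0.42, adjusted p = 0.0327; 2.8% of genes rose and 4.25% fell), a call lost without any one of esophagus replicates 1 and 2 and stomach replicates 2 and 4 (differences of -1.13, -1.38, -1.29 and -1.03). Between skin and small intestine, Serpinb7 (4.81 ± 0.42, adjusted p = 1.16e-08) and Serpinb6c (2.39 ± 0.22, adjusted p = 2.29e-08) rose and Serpinb6e fell (-1.70 ± 0.25, adjusted p = 1.8e-05), against 8.99% and 10.2% of all genes, and the same 3 were called without small intestine replicate 3.

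**Figure D4:**
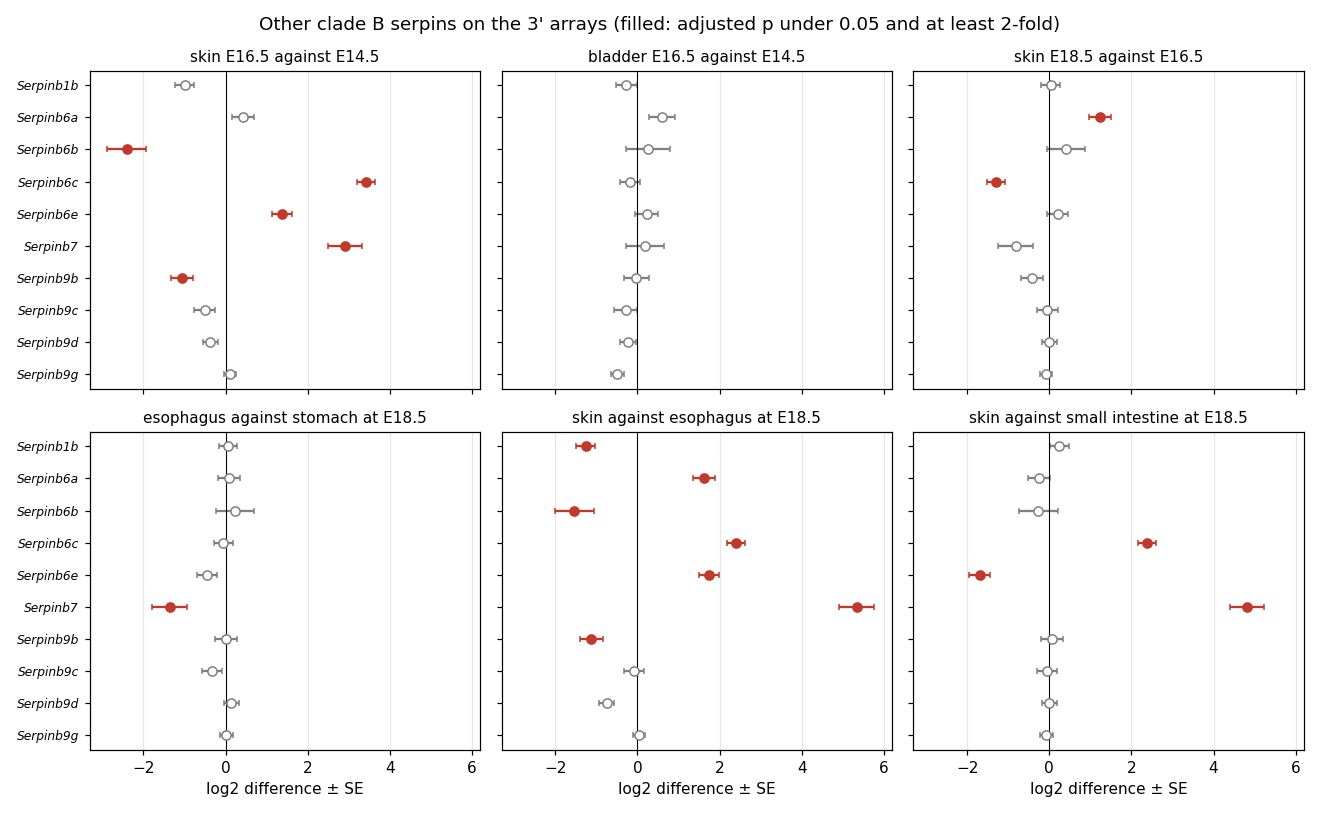
Log2 difference ± SE of 10 other clade B serpins in 6 comparisons on the 3' arrays, with filled points for genes that changed 2-fold or more and whose adjusted p is under 0.05. Serpinb6c and Serpinb7 lie right of 0 in skin at E16.5 against E14.5 and in skin against esophagus and small intestine, and no point is filled in bladder.

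Proteases that clade B serpins are known to inhibit or that share their tissues formed a list of 24. Like the lists below, it was chosen with earlier results of these data known. In the cornea the 24 had a median difference of 0.31 at E15.5 against E14.5, against -0.02 over all genes. Of them 4 rose and 0 fell, against 5.3% and 2.26% of all genes. They were the lysosomal cathepsins Ctsh (3.99 ± 0.26 SE, limma adjusted p = 1.92e-10), Ctsk (3.86 ± 0.46, adjusted p = 1.34e-06) and Ctsl (1.68 ± 0.17, adjusted p = 1.75e-07) and the mast cell chymase Cma1 (1.98 ± 0.27, adjusted p = 1.02e-05). The mean of 6 mast cell markers, Cma1 among them, was 8.52 to 8.59 at E15.5, against 7.65 to 7.90 at E14.5, and its part was not tested. At P28 against E15.5, Plau (urokinase) and Ctss rose by 1.48 and 1.18, and Ctsk and Cma1 fell by 2.72 and 1.81 on the log2 scale. Over all genes 4.9% rose and 5.4% fell there. At P28 against P14, Ctsk, Casp1 and Ctsh fell by 2.20, 1.64 and 1.01, against 1.63% of all genes up and 2.84% down. In trachea against the arrays labelled lung 3 rose and 3 fell, against 10.8% and 5.26% of all genes. Granzyme A (Gzma) was at 6.24 ± 0.18 in trachea and 13.12 ± 0.12 in the arrays labelled lung (-6.88, limma adjusted p = 9.32e-21).

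In skin at E16.5 against E14.5, 10 of the 24 proteases rose and 3 fell (9 and 3 with E14.5 replicates 1 and 2 averaged), against 18.2% and 25% of all genes. This comparison and that of skin with esophagus cross the array sets, here and for the lists below. Tissue or age and array set cannot be told apart in them. The desquamation kallikreins Klk7, Klk5 and Klk8 rose by 7.38, 4.81 and 4.01 (adjusted p = 5.55e-11, 1.71e-06 and 5.95e-06), and the mast cell tryptase Tpsb2 by 3.11 (adjusted p = 1.25e-09). From E16.5 to E18.5 only Ctss rose (1.44, adjusted p = 0.0128), and it did not pass with E18.5 replicate 1 alone. Of all genes 2.44% rose and 2% fell from E16.5 to E18.5. In bladder 0 of the 24 changed by limma (0.269% of all genes rose and 0.0715% fell) and 0 had an unadjusted p under 0.05. In esophagus 0 rose and 4 fell against stomach, namely Klk5, Klk7, Cela1 and Pcsk6 (-2.67, -2.20, -1.45 and -1.15). Over all genes 2.8% rose and 4.25% fell there. Between skin and esophagus 14 rose and 3 fell, against 23.3% and 25.7% of all genes. The rises were led by Klk7 (6.72), Klk5 (6.64), Cma1 (6.20) and Tpsb2 (5.51). The mean of 6 mast cell markers, Cma1 and Tpsb2 among them, was 5.39 to 5.51 in esophagus and all 6 markers were higher in skin, and their part was not tested. Between skin and small intestine 9 rose and 4 fell, against 8.99% and 10.2% of all genes. Without small intestine replicate 3, 8 rose and 5 fell.

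Among 12 serpins of other clades, 4 rose in cornea at E15.5 against E14.5 and 0 fell, against 5.3% and 2.26% of all genes. They were Serpinf1 (pigment epithelium-derived factor, 2.62, limma adjusted p = 2.08e-05), Serpini1 (2.00), Serping1 (C1 inhibitor, 1.64) and the collagen chaperone Serpinh1 (1.22). Without E14.5 replicate 3, Serpinh1 did not pass. Later, Serpinh1, Serpini1 and Serpinf1 fell by 2.67, 2.39 and 1.33 at P28 against E15.5 (5.4% of all genes fell). At P28 against P14, Serpinh1, Serpina3n and Serpinf1 fell by 2.04, 1.36 and 1.16 (2.84% fell). In trachea against the arrays labelled lung, Serpinh1, Serpinf1 and Serping1 rose by 2.39, 2.37 and 1.59 (10.8% rose). In skin at E16.5 against E14.5, 1 rose and 3 fell, against 18.2% and 25% of all genes. Serpina12 (vaspin) rose by 9.17, at 13.28, 14.13 and 14.13 at E16.5 and at 5.18, 4.35 and 4.5 at E14.5 (limma adjusted p = 8.52e-18). Serpind1, Serpinc1 and Serpina5 fell (-3.03, -2.29 and -1.19). Against E14.5 replicate 3 alone their differences were -0.57, -1.84 and 0.00, and none of the 3 passed. With E14.5 replicates 1 and 2 averaged Serpina5 did not pass (-0.89). Serpina9 and Serping1 rose by 1.2 and 1.14 at E18.5 against E16.5, but not with E18.5 replicate 1 alone. Of all genes 2.44% rose and 2% fell from E16.5 to E18.5. In bladder 0 of the 12 changed by limma (0.269% of all genes rose and 0.0715% fell) and 1 had an unadjusted p under 0.05. In esophagus Serpinf2 fell against stomach (-1.54, limma adjusted p = 0.00986), against 2.8% of all genes up and 4.25% down. Between skin and esophagus 5 rose and 2 fell, against 23.3% and 25.7% of all genes. The largest change was that of Serpina12 (9.45). Between skin and small intestine 3 rose and 2 fell, against 8.99% and 10.2% of all genes. The largest change was again that of Serpina12 (9.86). Without small intestine replicate 3, 4 rose and 1 fell, and fewer fell with skin replicate 1 alone.

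Epithelial protease inhibitors outside the serpin family numbered 18 on the Gene ST and 17 on the 3' arrays. Of these, 7 rose and 0 fell in cornea at E15.5 against E14.5, against 5.3% and 2.26% of all genes. Without E14.5 replicate 3, 4 rose. Alpha-2-macroglobulin (A2m) rose by 6.00 (limma adjusted p = 1.34e-13), the cystatin Csta1 by 4.72 (adjusted p = 1.59e-10), Timp2 by 2.12 and the kallikrein inhibitor Spink5 by 1.65. At P28 against E15.5, 5 rose and 1 fell, against 4.9% and 5.4% of all genes. Wfdc2, Csta1 and Spink5 were at 3.05, 1.97 and 1.95 and Timp2 at -1.73. At P28 against P14, Csta1 and Cst6 rose by 1.75 and 1.23 and Timp2 fell by 1.5 (1.63% of all genes rose and 2.84% fell). In trachea 5 rose and 1 fell against the arrays labelled lung (10.8% and 5.26% of all genes), led by Wfdc2 (3.84, limma adjusted p = 7.94e-10). In skin at E16.5 against E14.5, 5 rose and 1 fell, against 18.2% and 25% of all genes. The cystatin Cst6 was at 4.21 (limma adjusted p = 1.33e-09), Wfdc5 at 3.74, Spink5 at 2.48 and A2m at -3.81. Spink5 and A2m did not pass against E14.5 replicate 3 alone (1.73 and -1.53), nor Spink5 with replicates 1 and 2 averaged (2.29). By limma 0 of the 17 changed in skin from E16.5 to E18.5 and 0 in bladder, with 5 and 1 at an unadjusted p under 0.05. Over all genes 2.44% rose and 2% fell in that skin comparison, and 0.269% and 0.0715% in bladder. Slpi and Cst6 fell in esophagus against stomach (-5.55 and -2.88), where 4.25% of all genes fell. Between skin and esophagus 3 rose and 3 fell, against 23.3% and 25.7% of all genes, with Cst6 at 5.65 and Wfdc2 at -4.24. Between skin and small intestine 5 rose and 4 fell, against 8.99% and 10.2% of all genes. Without small intestine replicate 3, 6 rose and 3 fell. The counts of skin against esophagus and against small intestine changed with skin replicate 1 alone.

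The genes whose levels followed each member most closely were ranked by the smaller of Pearson's r over the 27 Gene ST and the 26 3' arrays, among 16553 genes on both. The arrays share tissues and ages, and the 3' arrays also fell into array sets. These values therefore describe a pattern over tissue, age or array set, which cannot be told apart here, and have no p. Serpinb5 was followed by Ppl and Clic3 (0.94 each), Serpinb8 by Grhl1 and Clic3 (0.91 each) and Serpinb11 by Exph5 (0.89) and Krt6a (0.88). Serpinb3a was followed by Asprv1 and Dsg1b (0.82 each), Serpinb12 by Usp20 (0.86) and Acvr1b (0.84), and Serpinb2 by Izumo1 (0.75) and Sphk1 (0.74). Serpinb1a, read on the 3' arrays from its brighter probe set only, was followed by Lrba (0.88) and Clpx (0.87). Its other probe set went the opposite way in skin, so these partners hold for the brighter set alone. Serpinb9 was followed by Spata13 (0.88) and Nfkb2 (0.87). Serpinb2, whose levels on the Gene ST arrays were nearly flat, was thus the member with the lowest such values. Clic3 was shared by Serpinb5 and Serpinb8.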

How the data were processed

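RNA of 53 arrays in 18 groups was measured on 2 Affymetrix array types. The authors deposited linear PLIER intensity values, from Affymetrix Expression Console 1.1.1 and PLIER 2.0 per the submitters' processing notes; any step between arrays was not given in the sources used for this work. Values were taken as log2(intensity + 16), quantile-normalized within each array type, and reduced to the brightest probe set per gene. On the Gene ST arrays 21789 probe sets had 1 gene, 1621 several and 12146 none in the platform annotation, and on the 3' arrays 34958, 932 and 9211. Probe sets with several genes were left out. All groups of an array type entered 1 limma 3.58.1 fit in R 4.3.3, with Benjamini-Hochberg adjustment over all genes. The number of arrays limits the precision. The fit was tested on simulated data. The members and gene lists were chosen with earlier results of these data known. Named genes were all members, every other clade B serpin that passed, up to 4 passing genes per list and comparison with the largest changes, and the 2 genes most like each member. Deviations of P14 and P28 corneas correlated within replicate numbers (0.133 to 0.242), though the labels do not pair these arrays. In the other comparisons checked, such correlations did not all exceed 0.1. Promoters are RefSeq windows (GRCm38.p6).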

Additional observations from a re-analysis of the deposited data

Results flagged for a closer look

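The change in skin from E14.5 to E16.5 minus the same change in bladder was tested as an interaction (limma, Benjamini-Hochberg over all genes) for the 10 other clade B serpins. It passed for Serpinb6c (3.60, adjusted p = 1.12e-08; 3.43 in skin and -0.18 in bladder), Serpinb7 (2.72, adjusted p = 0.00102; 2.91 and 0.18), Serpinb6e (1.13, adjusted p = 0.0165; 1.37 and 0.23), Serpinb6b (-2.67, adjusted p = 0.0034; -2.41 and 0.26) and Serpinb9b (-1.04, adjusted p = 0.0402; -1.06 and -0.03). Serpinb6b and Serpinb9b were highest in the E14.5 skin arrays with intestinal genes. With those 2 arrays, which may be 1 sample, averaged, Serpinb9b did not pass (-0.80, adjusted p = 0.113) and the other 4 did. Averaging keeps both arrays in the E14.5 mean, so it does not remove the intestinal genes. Against E14.5 replicate 3 alone the skin differences of Serpinb6b and Serpinb9b, given above, were smaller. An interaction without those 2 arrays is not given, so that of Serpinb6b may rest on them. The skin ages lie in different array sets and the bladder ages in 1, so these differences and the array sets cannot be told apart.

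For 2 of 8 members the arrays of both ages did not overlap in either organ and the change ran opposite ways, as for 11.9% of all genes. Serpinb9 was lower at E16.5 than at E14.5 in skin (-1.44) and higher in bladder (0.28). Serpinb11 was lower in skin (-2.35) and higher in bladder (0.61). The bladder change of Serpinb9 was small, with arrays at 8.28, 8.27 and 8.26 at E16.5 and at 7.77 and 8.22 at E14.5, and the skin ages cross the array sets here too. These differences between organs were not tested.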

How the results depend on the processing

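The member counts (at least 2-fold without overlap) and the counts of other clade B serpins called by limma moved as follows. With values as deposited, P28 against P14 gave 4 members in place of 1 (Serpinb1a, Serpinb5 and Serpinb8 at 1.11, 1.33 and 1.08 and Serpinb3a at -1.36), and esophagus against stomach 0 other serpins in place of 1. With a pseudocount of 1, skin at E18.5 against E16.5 gave 2 members in place of 1 and 1 other serpin in place of 2, bladder 1 member in place of 0 and cornea at E15.5 against E14.5 2 other serpins in place of 1. With genes above the table median only, the other serpins numbered 1 in place of 3 across cornea ages, 0 in place of 1 at E15.5 and 0 in place of 1 at P28 against E15.5. With the compared arrays only, they numbered 0 in place of 1 both at E15.5 and in esophagus against stomach, and Serpinb10 was lost across cornea ages (1.49) and Serpinb9b in skin at E16.5 (-1.06). With no fold limit they numbered 6 across cornea ages, 4 at E15.5, 1 at P28 against P14 and 4 in trachea. Without skin E18.5 replicates 2 and 3, skin at E18.5 against E16.5 gave 2 members and 1 other serpin. The mean of both Serpinb1a probe sets reversed its skin difference at E16.5 to -0.1, its other probe set, an alternative chosen after seeing the data, reversed it to -2.08 and that between skin and esophagus to -1.24, and no other member difference that passed the rule reversed.

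Leaving out arrays gave, as lowest and highest member counts, 1 and 2 for P28 against P14 and for skin at E18.5, 3 and 4 for esophagus against stomach, 7 and 8 for skin against esophagus and for skin at E16.5 and 5 and 7 for skin against small intestine, and the same 5, 4, 4 and 0 at E15.5, at P28 against E15.5, in trachea and in bladder. The other serpins numbered 2 to 4 across cornea ages, 1 to 2 at E15.5 and in skin at E18.5, 0 to 1 at P28 against E15.5, in trachea and in esophagus against stomach, 4 to 6 in skin at E16.5 and 6 to 7 in skin against esophagus, and stayed at 3 in skin against small intestine and at 0 in bladder and at P28 against P14. With the replicate number as a block, 2 were called across cornea ages and 0 at P28 against P14. It gave 1 each at E15.5, at P28 against E15.5, in trachea and in esophagus against stomach. The labels do not pair arrays by that number. The cause of these movements was not tested.

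Over all genes, the block gave 986 calls at E15.5 in place of 1507, and the mean of probe sets 507 in skin at E18.5 in place of 808. With the compared arrays only, bladder had 0 in place of 62 (100 without E14.5 replicate 1, 33 without E16.5 replicate 3) and skin against small intestine 2324 in place of 3500. Without a fold limit the calls were 10296 in place of 4321 (cornea ages), 5271 (E15.5), 5629 in place of 2052 (P28 against E15.5), 2731 in place of 891 (P28 against P14), 8547 in place of 3212 (trachea), 2308 (skin at E18.5), 2612 in place of 1283 (esophagus against stomach) and 6749 (skin against small intestine). Values as deposited split the calls into 539 higher and 531 lower at P28 against P14 (324 and 567 after quantile normalization), 334 and 660 in skin at E18.5 (444 and 364), 634 and 575 in esophagus against stomach (510 and 773) and 3418 and 5675 in skin against esophagus (4237 and 4667), where the median of all genes moved to -0.31 from -0.08.

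Of the member differences under single alternatives, 720 moved by less than 1 SD and 39 by more, and 3 that had passed the rule reversed. Sign changes of differences that had not passed were not counted as reversed. Serpinb11 in skin against small intestine, for example, went from -0.16 to 1.09 without small intestine replicate 3. For called other serpins 337 differences still passed and 25 did not. Low signals near the floor and 2 or 3 arrays per group limit what can be seen, and no detection calls were used.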
